A study of Mus musculus with 15 samples.

Results

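A set of 10 genes that glucocorticoids are known to raise in brain was followed across the series: Fkbp5, Sgk1, Tsc22d3, Zbtb16, Plin4, Cdkn1a, Sult1a1, Pdk4, Nr3c1 and Hif3a. They were chosen by name, from knowledge of the hormone response but with earlier results of these data known. They make up 10 of the 27179 gene IDs in the count table. All 10 were found there and all 10 were among the 17151 genes that passed the filter on low counts. RNA came from samples labelled as brain hemisphere of mice 12 months old. The transgenic mice (TG) were homozygous for PLP-α-synuclein, which puts human α-synuclein under the PLP promoter, active in oligodendrocytes. The non-transgenic mice (WT) had the C57Bl/6 background. There were 4 TG female, 3 TG male, 4 WT female and 4 WT male libraries. In the sample names, each genotype and sex carries its own number prefix, whose meaning was not given, so anything it stands for cannot be told apart from genotype and sex. The labels name no hormone treatment, and no hormone measurement was used here.

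Corticosterone, the main glucocorticoid of the mouse, binds the glucocorticoid receptor, which Nr3c1 encodes. The receptor then moves to the nucleus and binds DNA at response elements made of a pair of mirrored copies of AGAACA, or acts through other factors. Fkbp5 encodes a co-chaperone that lowers the receptor's affinity for hormone and is itself induced, which makes it a negative feedback gene. Nr3c1 is the exception among the 10, since the hormone often lowers its own receptor's transcript. In brain the response is strong in glia and blood vessels: Sgk1 and Pdk4 respond in oligodendrocytes, and Tsc22d3, Zbtb16 and Plin4 in several cell types.

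The promoter sequence of RefSeq on GRCm38.p6 is shown for 3 of the genes. Sgk1 and Tsc22d3 followed the region content of the libraries. Plin4 differed by region content too, and was the one gene to pass between genotypes, within a single class of libraries. Each line gives the 250 bases before the start site, 5′ to 3′ on the gene's own strand, and capitals mark the letters AGAACA or, for its other strand, TGTTCT. Sgk1 and Tsc22d3 have several start sites, and the window with the most matches is shown for each; the other windows of Tsc22d3 held none. Sgk1 is read on the plus strand and the other 2 genes on the minus strand.
Sgk1, chr10:21993640-21993889: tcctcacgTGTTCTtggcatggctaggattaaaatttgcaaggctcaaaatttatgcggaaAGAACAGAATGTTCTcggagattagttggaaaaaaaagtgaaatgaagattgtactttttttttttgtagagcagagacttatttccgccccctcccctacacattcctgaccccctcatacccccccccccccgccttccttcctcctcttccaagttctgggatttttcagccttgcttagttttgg
Tsc22d3, chrX:140600523-140600772: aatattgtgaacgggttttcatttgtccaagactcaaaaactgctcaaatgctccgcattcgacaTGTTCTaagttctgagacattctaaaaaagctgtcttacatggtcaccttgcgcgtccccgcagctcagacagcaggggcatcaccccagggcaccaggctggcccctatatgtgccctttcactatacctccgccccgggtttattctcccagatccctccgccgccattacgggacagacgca
Plin4, chr17:56109783-56110032: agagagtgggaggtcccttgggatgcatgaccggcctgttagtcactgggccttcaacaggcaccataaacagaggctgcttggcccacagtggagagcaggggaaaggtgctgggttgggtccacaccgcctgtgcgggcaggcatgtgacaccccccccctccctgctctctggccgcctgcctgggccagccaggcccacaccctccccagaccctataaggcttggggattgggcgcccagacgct
The window of Sgk1 held the full mirrored element, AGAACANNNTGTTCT, 189 bases before the start site, where the capitals also cover the 3 bases between the copies. It held 1 further single copy, 242 bases before the start site. Among 32851 RefSeq windows of 300 bases, from 250 before to 50 after a start site, the full element occurred in 3, or 0.00913%. A single copy on either strand occurred in 19.0% of them, a share that includes windows with the full element, which contains 2 single copies. The table gave 16 windows for 8 of the genes and none for Zbtb16 and Nr3c1. A single copy was found in 5 windows of 3 genes, namely Sgk1, Sult1a1 and Tsc22d3. The windows of Plin4, Fkbp5, Hif3a, Pdk4 and Cdkn1a held none of these letters. Of these, Plin4, Pdk4 and Cdkn1a also differed strongly by region content. Whether a match goes with any pattern of levels was not tested. A match describes letters in the window and is not a measured binding site.

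The libraries differed in region content although all carry the same tissue label, and the genotypes were therefore also compared within classes of like libraries. Each was put in a class by its level of 3 region markers that are not among the 10 genes, in CPM, the count scaled by sequencing depth, on TMM-scaled library sizes. A library with Gabra6 of at least 100 CPM was put in the cerebellum class, else one with Hoxa5 of at least 10 CPM in the hindbrain class, else one with Neurod6 of at least 100 CPM in the cortex class. The rest formed the olfactory class, so called for Omp, a marker of olfactory sensory axons, at 42.2 to 159 CPM there and at most 2.71 CPM elsewhere. These classes were made from the data and are not groups of the study. Region content also varied inside the olfactory class, where Neurod6 ran from 4.35 CPM in WT female 1 to 55.8 CPM in WT male 2. The sum of 4 cortex markers, Neurod6 among them, was 54.8 to 77.2 CPM in its TG libraries. In its WT libraries the sum was 50.6 to 166 CPM, highest in WT male 2. The part of this variation in the differences and correlations within the class was not tested. The olfactory class held 3 TG and 4 WT libraries, the hindbrain class 2 TG (both female) and 2 WT, the cortex class 1 TG and 2 WT, and the cerebellum class 1 TG library. Library totals ran from 15170772 to 35850998 counts, and the lowest count of any of the 10 genes was 89, for Plin4 in WT male 2.

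Most of the genes followed the region class of the library far more than the genotype. In the hindbrain class Sgk1, Tsc22d3, Pdk4 and Plin4 stood at more than 3 times their olfactory level, while Cdkn1a, the gene of the cell-cycle inhibitor p21, was lower. Sgk1 encodes a kinase that acts on ion channels and transporters, and averaged 257 ± 15.7 CPM in the hindbrain class (SD, n = 4) and 71.8 ± 24.7 CPM in the olfactory class (SD, n = 7). Tsc22d3, which encodes the anti-inflammatory protein GILZ, averaged 227 ± 6.97 CPM in the hindbrain class and 75.1 ± 11.8 CPM in the olfactory class. Neither gene's libraries overlapped between these classes. For Sgk1 the log2 difference was 1.79 ± 0.21 (SE), and for Tsc22d3 it was 1.58 ± 0.12 (adjusted p = 1.55e-05 and 2.06e-07, by the quasi-likelihood test of edgeR and Benjamini-Hochberg adjustment over all genes).

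Pdk4 encodes the kinase that shuts off pyruvate dehydrogenase and so spares glucose. It averaged 29.0 ± 2.11 CPM in the hindbrain class and 9.28 ± 1.34 CPM in the olfactory class, a log2 difference of 1.64 ± 0.11 (adjusted p = 8.33e-08, same test). Plin4, which encodes a protein that coats lipid droplets, averaged 69.4 ± 28.7 CPM in the hindbrain class and 16.5 ± 12.3 CPM in the olfactory class, with a log2 difference of 2.08 ± 0.33 (adjusted p = 0.000193). Its libraries overlapped between the classes. Cdkn1a ran the other way, at 23.5 ± 2.88 CPM in the hindbrain class and 83.8 ± 24.4 CPM in the olfactory class, a log2 difference of -1.87 ± 0.27 (adjusted p = 9.35e-05).

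In all, 8 of the 10 genes passed between the hindbrain and olfactory classes, 5 of them higher and 3 lower in the hindbrain class. Over all genes tested 66.8% passed, 33.1% higher and 33.7% lower, so a call here is common to most genes. The calls of Nr3c1 (0.21 ± 0.09, higher), Fkbp5 (-0.24 ± 0.10) and Sult1a1 (-0.41 ± 0.16) were small and did not hold when single libraries were left out. For Fkbp5 the call ended without WT male 1, WT male 3, WT female 3, WT female 4 or any 1 of TG female 1, 2 and 4 and TG male 1 and 3. For Nr3c1 it ended without WT male 3, any 1 of WT female 1 to 4 and of TG female 1, 2 and 4, TG male 1 or TG male 3. For Sult1a1 it ended without WT male 3, WT female 4, TG female 4 or TG male 3. The adjusted p of these 3 genes over the fits with 1 library left out ran from 0.0134 to 0.130, 0.00562 to 0.187 and 0.00788 to 0.144. Hif3a and Zbtb16 did not pass, though Hif3a did without WT female 4 (0.60, adjusted p = 0.0184).

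The cortex class was highest for Nr3c1 and Zbtb16. The receptor gene Nr3c1 averaged 215 ± 31.5 CPM in the cortex class (SD, n = 3) and 103 ± 9.08 CPM in the olfactory class, a log2 difference of 1.06 ± 0.09 (adjusted p = 3.40e-06, edgeR's quasi-likelihood test). Zbtb16, which encodes the zinc-finger repressor PLZF, averaged 94.0 ± 9.90 CPM in the cortex class and 39.6 ± 9.05 CPM in the olfactory class, a log2 difference of 1.29 ± 0.18 (adjusted p = 0.000154). Neither gene's libraries overlapped between these classes. Sgk1, Tsc22d3 and Pdk4 were also higher in the cortex class, by 0.97 ± 0.22, 0.71 ± 0.13 and 0.57 ± 0.12, and Cdkn1a was lower by 2.00 ± 0.31 on the log2 scale. That makes 5 genes that passed as higher and 1 as lower, against 25.0% and 23.9% of all genes tested, or 48.9% in both directions together. The single cerebellum library, TG female 3, had the highest Hif3a level of all 15 libraries, at 37.3 CPM, and the lowest Fkbp5 level, at 20.3 CPM.

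**Figure D1:**
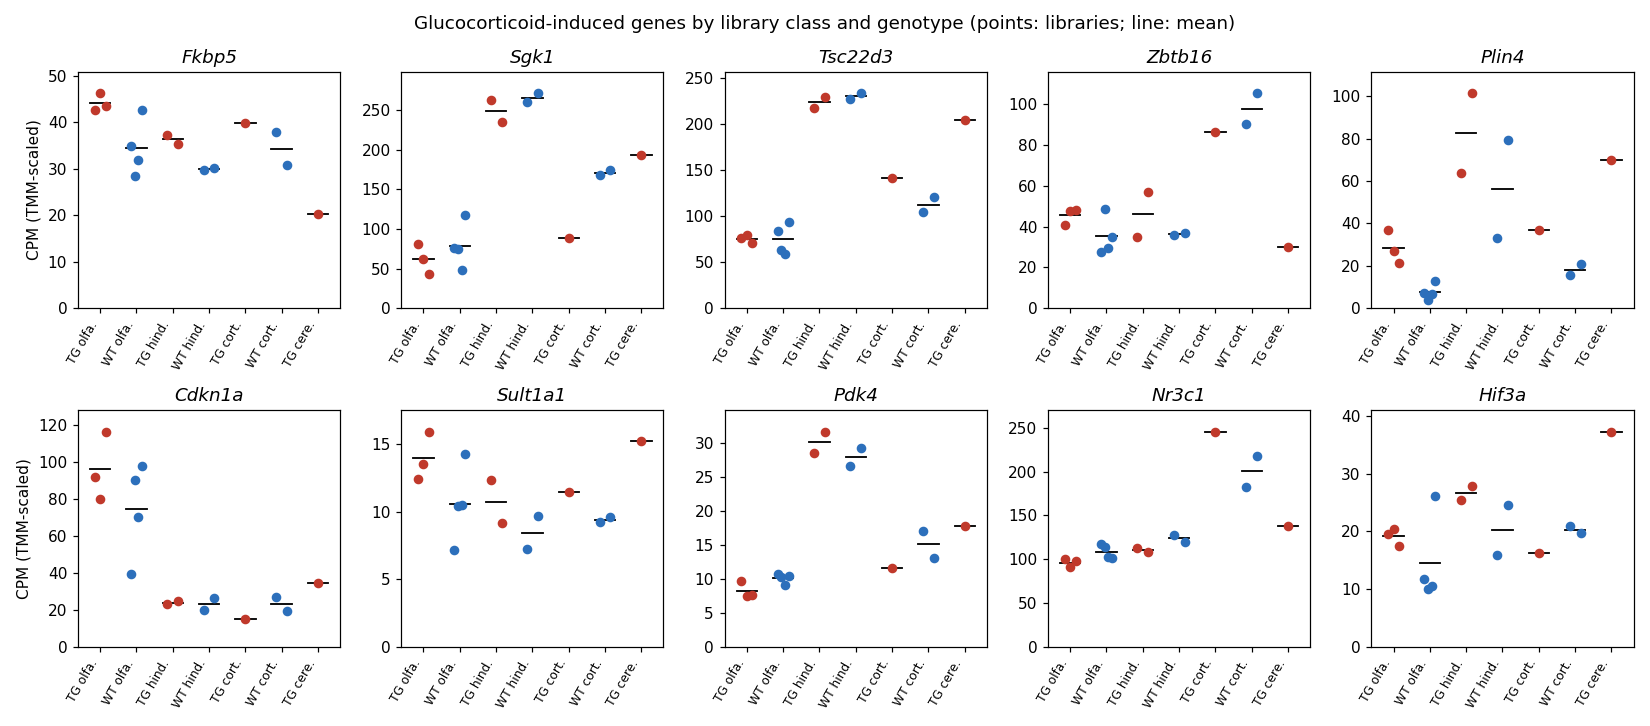
CPM on TMM-scaled library sizes (vertical axes from 0, 1 panel per gene) in each library, by library class and genotype; red points are TG libraries, blue points WT libraries, and black lines group means. The hindbrain points of Sgk1, Tsc22d3 and Pdk4 lie above all their olfactory points in both genotypes, and the 3 TG points of Plin4 in the olfactory class (21.2 to 36.9 CPM) lie above all 4 WT points (4.10 to 12.7 CPM).

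Levels can be set against each other between genes only per length of exons. In the olfactory class the means ran from 23.6 CPM per kb for Cdkn1a, 17.3 for Tsc22d3, 14.7 for Sgk1 and 13.4 for Nr3c1 down to 2.86 for Plin4, 2.64 for Pdk4 and 2.46 for Hif3a. Hindbrain libraries had Sgk1 and Tsc22d3 in the lead, at 52.4 and 52.2 CPM per kb. Of the variance of log2(CPM + 1) over all 15 libraries, class took 94.6% for Tsc22d3, 94.0% for Pdk4 and 91.7% for Nr3c1, and 30.0% for Sult1a1. The single cerebellum library counted there as a class of its own, which fits it exactly. Genotype took most after class for Sult1a1 (27.3%), Fkbp5 (25.3%) and Plin4 (24.3%). Over all genes tested the median was 79.2% for class and 1.08% for genotype after class. Class took 30.0%, 55.9% and 61.8% for Sult1a1, Fkbp5 and Plin4, so it left more for genotype to take than in the median gene.

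Marker genes of several cell types differed between the classes as well, which touches the levels above. All 8 oligodendrocyte markers were higher in the hindbrain class than in the olfactory class (median log2 difference 2.74), and their summed level was 17717 to 22948 CPM in the hindbrain libraries and 1868 to 3515 CPM in the olfactory libraries. Of 7 astrocyte markers 6 were higher and 1 lower (median 1.22), with sums of 5044 to 6561 CPM in hindbrain libraries and 2214 to 2777 CPM in olfactory libraries. Between the same classes 5 of 8 endothelial, 3 of 6 mural, 4 of 7 microglial and 3 of 6 neuronal markers passed as higher. As lower, 2 neuronal markers passed, as did 8 of 9 immediate early genes, which respond to neuronal activity and handling (median -2.59). By direction alone, 7 endothelial, 5 mural, 5 microglial and 4 neuronal markers were positive, and all 9 immediate early genes were negative. Over all genes tested 33.1% passed as higher and 33.7% as lower. Summed endothelial markers stood at 280 to 301 CPM in hindbrain libraries and 214 to 312 CPM in olfactory libraries. Between the cortex and olfactory classes all 6 neuronal markers were positive and 5 passed. Their sums were 8722 to 11039 CPM in cortex libraries and 6049 to 6904 CPM in olfactory libraries. All 8 oligodendrocyte markers were positive and 4 passed. Of 7 astrocyte markers 6 were negative, of which 4 passed, and the other 1 passed as higher. Over all genes tested 25.0% passed as higher and 23.9% as lower between these classes. The part of these markers' cell types in the class differences was not tested. In such bulk tissue, fewer cells of a type and less RNA per cell cannot be told apart.

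Between genotypes, none of the 10 genes passed when all 15 libraries were compared with sex as a covariate, where 0.111% of all genes tested passed. The smallest p values among the 10 were 0.0207 for Sult1a1 and 0.0587 for Plin4, and 1 gene was below an unadjusted 0.05, as were 1.83% of all genes. DESeq2 also called none. With library class added to the fit, none passed either, against 0.496% of all genes. Here 3 of the 10 were below an unadjusted 0.05, namely Plin4, Fkbp5 and Sult1a1, against 8.40% of all genes. DESeq2, which called more genes in all than edgeR with class, called Plin4. The edgeR difference was positive for 7 of the 10, with a median of 0.19 on the log2 scale. Over all genes tested the median was 0.00 and 8647 of 17151 were positive. Adding class lowered the spread left between libraries, as edgeR's biological coefficient of variation, to 14.2%, against 43.1% before.

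Within the olfactory class Plin4 was the only one of the 10 to pass, against 0.245% of all genes tested, or 42 genes. Below an unadjusted 0.05 were 4 of the 10, Plin4, Fkbp5, Sult1a1 and Pdk4, against 7.75% of all genes. It was 3.74 times higher in TG by the means. Plin4 was at 36.9 CPM in TG female 2, 27.2 CPM in TG male 1 and 21.2 CPM in TG male 3. Among WT libraries it was at 12.7 CPM in WT female 4, 7.04 CPM in WT male 1, 6.58 CPM in WT female 1 and 4.10 CPM in WT male 2. The lowest TG library stood above the highest WT library. By their means, TG libraries had 28.4 ± 7.92 CPM (SD, n = 3) and WT libraries 7.60 ± 3.63 CPM (SD, n = 4), and the fitted log2 difference was 2.06 ± 0.28 (adjusted p = 0.0248, edgeR's quasi-likelihood test, place 27 by p among all genes).

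This call was sensitive to the settings. Its adjusted p was 0.0567 without WT male 1, 0.0942 without WT male 2, 0.0528 without WT female 1, 0.0964 without TG female 2, 0.0874 without TG male 1 and 0.0985 without TG male 3. It was 0.0503 with no filter on low counts and 0.0642 with the olfactory class fitted alone. The log2 difference itself stayed between 1.91 and 2.25 in the 15 fits with 1 library left out. DESeq2, which called more genes in all than edgeR within this class, gave an adjusted p of 2.3e-11.

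Hindbrain libraries had Plin4 at 64.0 and 101 CPM in TG female 1 and TG female 4, against 79.2 CPM in WT female 3 and 33.0 CPM in WT male 3. The genotypes overlapped, and the log2 difference was 0.28 ± 0.34. Both TG libraries of this class were female. In the cortex class Plin4 was at 36.7 CPM in TG male 4, against 15.5 CPM in WT male 4 and 20.7 CPM in WT female 2, a log2 difference of 1.43 ± 0.42 (adjusted p = 0.257, edgeR, with 1 TG library whose spread is assumed to be that of the others). With library class in the fit of all 15 libraries the difference was 1.34 ± 0.28 (adjusted p = 0.0961), and it passed without WT female 3 (adjusted p = 0.0194) or without TG female 1 (0.0308). The olfactory difference exceeded the hindbrain one by 1.78 ± 0.45 (adjusted p = 0.688, edgeR), and none of the 10 passed in that comparison, where 0.0117% of all genes did. Plin4 alone among the 10 was below an unadjusted 0.05 there (unadjusted edgeR p of 0.00321). DESeq2, which called more genes in all than edgeR in that comparison, gave Plin4 an adjusted p of 0.0452.

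Marker genes and neighbouring genes were measured beside Plin4. In fat tissue Plin4 is an adipocyte gene, and 6 other adipocyte genes (Adipoq, Plin1, Cidec, Lep, Retn and Fabp4, a list chosen after these values were seen) reached at most 0.609 CPM in any library. Summed oligodendrocyte markers in the olfactory class were 2290 to 3469 CPM for TG libraries and 1868 to 3515 CPM for WT libraries, with overlapping ranges, and endothelial markers 244 to 265 CPM for TG libraries and 214 to 312 CPM for WT libraries. The 4 erythroid markers tested all had a negative difference there (median -0.97, none called and none below an unadjusted 0.05 in edgeR), with sums of 25.4 to 75.7 CPM for TG libraries and 49.9 to 181 CPM for WT libraries. With class in the fit of all libraries 3 of these 4 were below an unadjusted 0.05 (median -1.19). Of 7 astrocyte markers 5 had a negative difference in the olfactory class, 2 below an unadjusted 0.05, with sums of 2214 to 2424 CPM for TG libraries and 2345 to 2777 CPM for WT libraries. The part of these markers in the Plin4 difference was not tested. Plin4 (chr17:56100587-56109948, GRCm38.p6) overlaps the end of Hdgfl2, and since the strand used in counting was not given, reads in the overlap could be assigned to either. Hdgfl2 differed by -0.01 ± 0.06 on the log2 scale within the olfactory class. Of 64 tested genes within 2 Mb of Plin4, 1 passed between genotypes with library class in the fit. This was Plin3 (chr17:56278962-56290511), another lipid droplet coat gene, named here after its values were seen, and it was lower in TG (-0.70 ± 0.11, adjusted p = 0.00784, edgeR).

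The fitted Plin3 difference had the opposite sign to that of Plin4 in each of the 3 classes. The sign for Plin4 was not settled among hindbrain libraries, where it ran from -0.091 to 0.68 with 1 library left out. Plin3 did not pass within the olfactory class (-0.47 ± 0.13, adjusted p = 0.351, edgeR) or the hindbrain class (-0.90 ± 0.17, adjusted p = 0.177, edgeR). Among olfactory libraries it was at 14.8, 13.1 and 11.9 CPM in TG female 2, TG male 1 and TG male 3, against 17.0, 14.6, 22.8 and 21.7 CPM in WT male 1, WT male 2, WT female 1 and WT female 4. The genotypes overlapped slightly there. Among hindbrain libraries it was at 44.98 and 37.5 CPM in TG female 1 and TG female 4, against 68.2 and 73.7 CPM in WT male 3 and WT female 3. The cortex class had 7.40 CPM in TG male 4, against 16.9 and 14.4 CPM in WT male 4 and WT female 2.

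**Figure D2:**
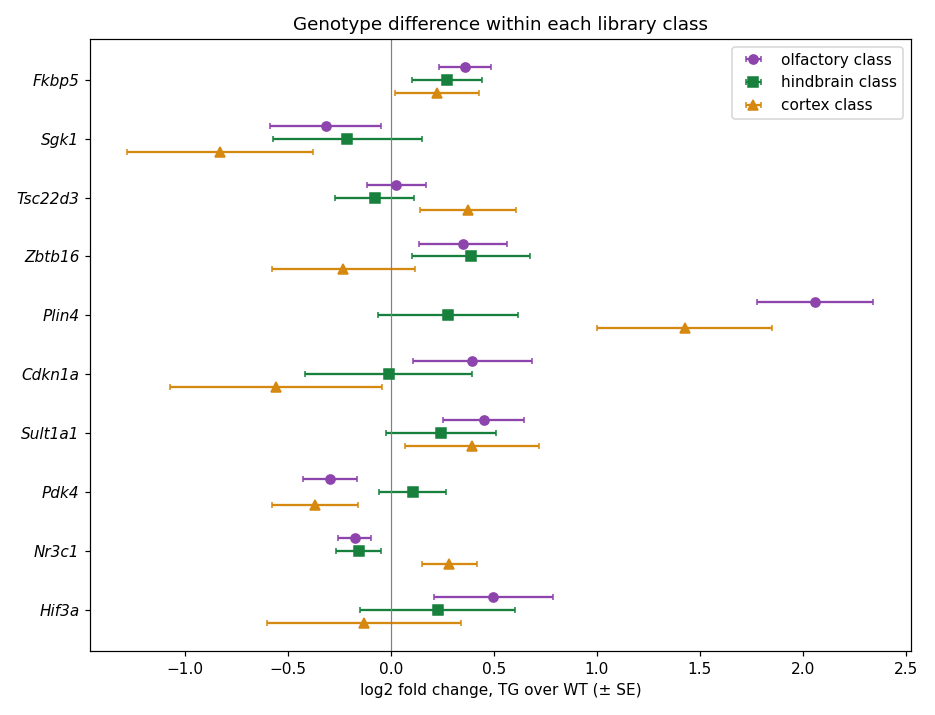
Log2 fold change of TG over WT (horizontal axis) for each of the 10 genes (vertical axis) within the olfactory, hindbrain and cortex classes, with bars of 1 SE from the edgeR fit. Plin4 in the olfactory class, at 2.06, is the only value past the threshold, and Fkbp5 (0.36, 0.27 and 0.23) and Sult1a1 (0.45, 0.25 and 0.40) lie above 0 in all 3 classes without passing.

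Fkbp5, the feedback co-chaperone, was a little higher in TG libraries in each class without passing the test. Among olfactory libraries it was at 46.2 CPM in TG male 1, 43.6 CPM in TG male 3 and 42.7 CPM in TG female 2. WT libraries had 42.6 CPM in WT female 4, 34.9 CPM in WT male 1, 32.0 CPM in WT female 1 and 28.5 CPM in WT male 2. The ranges did not overlap, but the nearest TG and WT libraries were almost equal. By the means TG libraries stood at 44.2 ± 1.84 CPM (SD, n = 3) and WT libraries at 34.5 ± 6.01 CPM (SD, n = 4), a log2 difference of 0.36 ± 0.13 (adjusted p = 0.518, edgeR's quasi-likelihood test).

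Hindbrain libraries had Fkbp5 at 37.2 and 35.4 CPM in TG female 1 and TG female 4, against 29.8 and 30.1 CPM in WT male 3 and WT female 3. In the cortex class it was at 39.9 CPM in TG male 4, against 38.0 and 30.7 CPM in WT male 4 and WT female 2. With library class in the fit the difference was 0.31 ± 0.08, with an unadjusted p of 0.00265 and an adjusted p of 0.220. It was positive in all 15 fits with 1 library left out, from 0.26 to 0.36, and passed in none. Immediate early genes were measured beside it. In the olfactory class all 9 had a positive difference (median 0.55, none past the threshold in edgeR and none below an unadjusted 0.05), and their summed level was 1485 to 3521 CPM for TG libraries and 704 to 2501 CPM for WT libraries. Their part in the Fkbp5 and Plin4 differences was not tested.

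Of the 10 genes, Fkbp5 and Plin4 had all TG libraries above all WT libraries in the olfactory class, and Nr3c1 had all TG below all WT. Such separation occurred in 3.83% of all genes with TG above and in 2.95% with TG below. Among hindbrain libraries Fkbp5 and Hif3a had TG above and Nr3c1 TG below, where with 2 libraries against 2 this occurred in 18.7% and 20.0% of all genes. No gene of the 10 passed the test within the hindbrain class (0.0700% of all genes did) or the cortex class (0.274%) in edgeR. Within the hindbrain class 0 of the 10 were below an unadjusted 0.05, against 5.81% of all genes, and DESeq2 called 0. The largest difference of the 10 in the cortex class, with its 1 TG library, was that of Plin4 (1.43 ± 0.42, edgeR). Over all genes DESeq2 called more than edgeR did in each class.

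Nr3c1, the receptor, lay lower in TG libraries of the olfactory and hindbrain classes and higher in the TG library of the cortex class. Among olfactory libraries it was at 99.7, 97.4 and 90.7 CPM in TG female 2, TG male 3 and TG male 1, against 117, 113, 102 and 101 CPM in WT male 1, WT male 2, WT female 1 and WT female 4. The ranges were separated by a narrow gap. The log2 difference was -0.18 ± 0.08 (adjusted p = 0.637, edgeR). It was 112 and 108 CPM in TG female 1 and TG female 4, against 128 and 119 CPM in WT male 3 and WT female 3 (-0.16 ± 0.11). In the cortex class it was 246 CPM in TG male 4, against 183 and 218 CPM in WT male 4 and WT female 2 (0.28 ± 0.13). None of these differences passed.

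Around Nr3c1, 55 genes within 2 Mb were tested and 14 passed between genotypes with library class in the fit. All 14 are protocadherin genes, a cluster of similar genes. Within the olfactory class 5 of the 55 passed. Whether the counting split reads of such similar genes unevenly was not tested. Around the other 9 genes, Plin3 beside Plin4 was the only gene to pass with library class in the fit. Fkbp5 and Cdkn1a lie near each other on chromosome 17, at chr17:28398753-28486149 and chr17:29090979-29100722 (GRCm38.p6), so their neighbourhoods overlap.

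Hif3a encodes a hypoxia-inducible factor that can oppose the other members of its family. It was at 20.4, 19.5 and 17.5 CPM in TG male 1, TG female 2 and TG male 3 of the olfactory class, against 26.1, 11.7, 10.4 and 9.90 CPM in WT female 4, WT male 1, WT female 1 and WT male 2. WT female 4 was above every TG library and the other WT libraries were below them. The log2 difference was 0.50 ± 0.29 (adjusted p = 0.677, edgeR). In the hindbrain class it was at 25.4 and 27.9 CPM in TG female 1 and TG female 4, against 15.8 and 24.6 CPM in WT male 3 and WT female 3, and in the cortex class at 16.3 CPM in TG male 4, against 20.9 and 19.6 CPM in WT male 4 and WT female 2. The cortex order was thus opposite, with a log2 difference of -0.13 ± 0.47.

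Sult1a1 encodes a sulfotransferase of phenolic compounds, and had the lowest share of variance by class among the 10. Among olfactory libraries it was at 15.9, 13.5 and 12.4 CPM in TG male 3, TG male 1 and TG female 2, against 14.3, 10.4, 10.4 and 7.16 CPM in WT female 4, WT female 1, WT male 2 and WT male 1. The genotypes overlapped through WT female 4. The log2 difference was 0.45 ± 0.20 (adjusted p = 0.630, edgeR), and with library class in the fit it was 0.38 ± 0.13 (adjusted p = 0.422). Sult1a1 overlaps Slx1b, with the same limit on strand as for Plin4, and Slx1b differed by 0.11 ± 0.06 in the fit with class.

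Zbtb16 and Cdkn1a varied widely among WT libraries of the olfactory class. Zbtb16 was at 48.1, 47.7 and 40.6 CPM in TG male 3, TG male 1 and TG female 2, against 48.7, 34.9, 29.7 and 27.4 CPM in WT male 2, WT female 4, WT female 1 and WT male 1. The highest library was thus a WT one, and the log2 difference was 0.35 ± 0.21. Cdkn1a was at 117, 92.1 and 80.1 CPM in TG male 3, TG female 2 and TG male 1, against 97.8, 90.6, 70.2 and 39.4 CPM in WT female 4, WT male 2, WT female 1 and WT male 1. WT male 1 was lowest for both genes. The Cdkn1a difference was 0.40 ± 0.29, and neither gene passed in edgeR (adjusted p = 0.689 and 0.707).

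Sgk1, Tsc22d3 and Pdk4 were not higher in TG libraries of the olfactory class. Sgk1 was at 81.6, 62.2 and 43.5 CPM in TG female 2, TG male 1 and TG male 3, against 117, 75.5, 74.6 and 48.0 CPM in WT female 4, WT male 1, WT male 2 and WT female 1, a log2 difference of -0.32 ± 0.27. In the cortex class it was at 89.1 CPM in TG male 4, against 168 and 174 CPM in WT male 4 and WT female 2 (-0.83 ± 0.45). Both ran downward without passing. Tsc22d3 was at 79.2, 76.1 and 71.2 CPM in TG male 1, TG female 2 and TG male 3, against 93.3, 83.6, 63.2 and 59.1 CPM in WT female 4, WT male 1, WT male 2 and WT female 1, a difference of 0.03 ± 0.14. All its TG values lay inside the WT range. Pdk4 was at 9.64, 7.52 and 7.46 CPM in TG female 2, TG male 3 and TG male 1, against 10.7, 10.4, 10.3 and 9.0 CPM in WT male 1, WT female 4, WT male 2 and WT female 1, a difference of -0.30 ± 0.13 (adjusted p = 0.630, edgeR).

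For the rest, hindbrain and cortex libraries gave no separation between genotypes that passed. Among hindbrain libraries Sgk1 was at 263 and 235 CPM in TG female 1 and TG female 4, against 260 and 271 CPM in WT male 3 and WT female 3. In the same order of libraries, Tsc22d3 was at 217 and 230 CPM in TG, against 227 and 233 CPM in WT, and Pdk4 at 28.6 and 31.7 CPM in TG, against 26.6 and 29.3 CPM in WT. All 3 overlapped between genotypes, at levels well above those of the olfactory class. Zbtb16 was at 35.0 and 57.0 CPM in TG, against 35.7 and 36.8 CPM in WT, so its difference came from TG female 4. Cdkn1a was at 23.0 and 24.6 CPM in TG, against 19.7 and 26.5 CPM in WT, and Sult1a1 at 12.3 and 9.14 CPM in TG, against 7.25 and 9.64 CPM in WT.

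The cortex class set 1 TG library, TG male 4, against WT male 4 and WT female 2. Tsc22d3 was higher in the TG library, at 142 CPM, against 104 and 121 CPM in the WT libraries (0.37 ± 0.23), and so was Sult1a1, at 11.5 CPM, against 9.20 and 9.57 CPM. Pdk4 was lower in the TG library, at 11.6 CPM, against 17.0 and 13.1 CPM (-0.37 ± 0.21). Cdkn1a was lower too, at 15.1 CPM in TG, against 26.7 and 19.3 CPM in WT, as was Zbtb16, at 86.4 CPM in TG, against 90.3 and 105 CPM in WT. None of these differences passed, and the TG value has no replicate. All 8 oligodendrocyte markers also had a negative difference there (median -0.78, none called and 3 below an unadjusted 0.05 in edgeR), with a sum of 2588 CPM in TG male 4, against 4265 and 5300 CPM in the WT libraries. The part of these markers in the differences of Sgk1, Pdk4 and the other genes of this class was not tested.

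The genes were next compared with one another across the 7 olfactory libraries, the one class with enough libraries for a correlation. Fkbp5 correlated with Plin4 (Pearson r = 0.91, Spearman rho = 0.89) and with Hif3a (r = 0.90, rho = 0.75), and Cdkn1a with Sult1a1 (r = 0.91, rho = 0.82). The exact permutation p of these r were 0.00813, 0.00754 and 0.00615, and those of rho 0.0123, 0.0663 and 0.0341. Of the 45 pairs, 26 were positive and 19 negative, and 3 had r above 0.8. None passed Benjamini-Hochberg adjustment over the 45 exact permutation tests (smallest adjusted p = 0.122 for r and 0.277 for rho), and 8 were below an unadjusted 0.05. Without the 2 libraries farthest from the median of the first gene, r was 0.80 for Fkbp5 with Plin4, 0.78 for Fkbp5 with Hif3a and 0.58 for Cdkn1a with Sult1a1, so the third pair rested largely on WT male 1 and WT female 1. These r span both genotypes, and the libraries share 1 normalization.

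Nr3c1 ran against most of the others, with a negative r in 7 of its 9 pairs, the lowest being -0.81 with Sult1a1 and -0.78 with both Fkbp5 and Plin4. It was positive with Pdk4 (r = 0.80) and Sgk1 (r = 0.25). Sgk1 and Pdk4 had r = 0.72 with each other, and r = 0.08 and r = -0.54 with Fkbp5. Leaving Nr3c1 out, 24 of 36 pairs were positive. Without the 2 libraries farthest from its median, Zbtb16 had r = -0.71 with Hif3a, -0.20 with Sult1a1, -0.16 with Plin4 and -0.06 with Cdkn1a. Its r with Fkbp5 was 0.91 without the 2 farthest for Fkbp5. By the same rule Nr3c1 turned positive with Cdkn1a (0.12) and Zbtb16 (0.03), and Pdk4 with Hif3a (0.20).

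**Figure D3:**
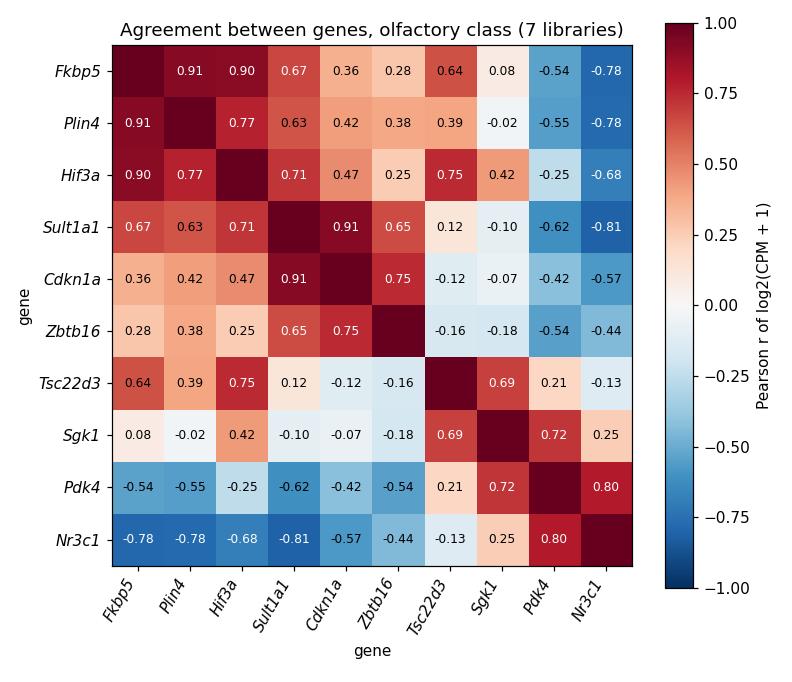
Pearson r of log2(CPM + 1) between each pair of the 10 genes (both axes) over the 7 olfactory libraries, red for positive and blue for negative. With all 7 libraries, Fkbp5, Plin4, Hif3a, Sult1a1, Cdkn1a and Zbtb16 are positive with one another, and Pdk4 and Nr3c1 are negative with each of these 6. Not all of these signs held with 2 libraries left out.

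By library, the spread did not divide cleanly by genotype. In the olfactory class TG male 1 was above the class median for 6 of the 10 genes, TG female 2 and TG male 3 for 5 each, WT female 4 for 6, WT male 1 for 4, WT male 2 for 3 and WT female 1 for 1. WT female 4 had the highest Sgk1, Tsc22d3 and Hif3a of its class, and WT male 2 the lowest Fkbp5, Plin4 and Hif3a. Among hindbrain libraries WT male 3 was lowest for 6 genes, Fkbp5, Plin4, Cdkn1a, Sult1a1, Pdk4 and Hif3a, while WT female 3 was above the median for 8 and TG female 4 for 7. TG male 4, the lone TG library of the cortex class, was highest there for 5 genes and lowest for the other 5.

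**Figure D4:**
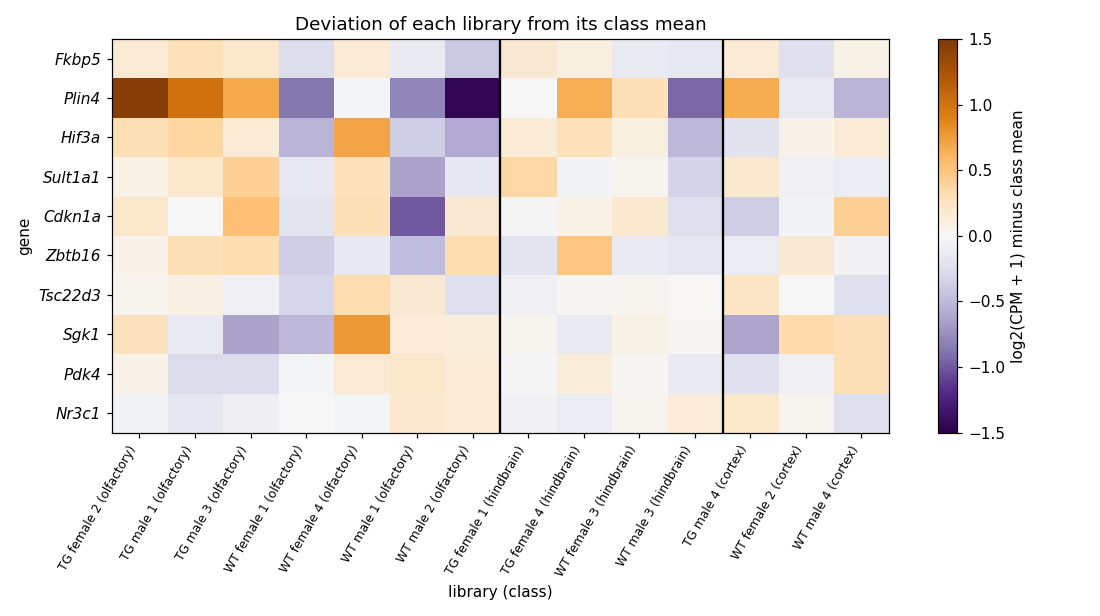
Deviation of each library's log2(CPM + 1) from its class mean (colour, orange above and purple below) for the 10 genes (rows) and 14 libraries (columns, TG before WT within the olfactory, hindbrain and cortex classes, split by black lines). Plin4 shows the strongest colours, and WT female 4 is orange for Sgk1 and Hif3a among WT libraries.

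The genes most like Fkbp5 across the 14 libraries, after each class mean was removed, were Amn1 (r = 0.90), Ptcd1 (0.89), Nsmce4a (0.85), Nrros (0.83) and P3h3 (0.83). Among 15129 genes ranked, Plin4 held place 18 (r = 0.79), Hif3a place 36 (0.76) and Sult1a1 place 159 (0.66). Nr3c1 was near the other end, at place 14588 (r = -0.54). Of the 5 most alike, Nsmce4a passed between genotypes with class in the fit (0.52 ± 0.08, adjusted p = 0.0128, edgeR). These r are descriptions over libraries that share genotype and normalization.

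Other genes that glucocorticoids raise gave no call between genotypes in edgeR over all libraries, with library class or within a class. Of 25 such genes, all tested, 20 had a positive difference over all libraries (median 0.14) and 17 with library class in the fit (median 0.06). The median for all genes was 0.00 in each. Below an unadjusted 0.05 were 0 and 1 of the 25, against 1.83% and 8.40% of all genes. Region classes were unequal between genotypes, with the 1 cerebellum library being TG. Within classes, 15 were positive in the olfactory (median 0.05), 14 in the hindbrain (0.11) and 12 in the cortex class (-0.03). The smallest p values belonged to Xdh, encoding xanthine dehydrogenase (0.49 ± 0.25), and Lcn2, encoding lipocalin 2 (2.09 ± 1.12), over all libraries, and to Klf9, a Krüppel-like transcription factor (0.19 ± 0.06, adjusted p = 0.377), with class in the fit. The high Lcn2 value came from 2 TG libraries, TG female 4 at 8.63 CPM and TG female 3 at 7.10 CPM, while the other 13 were below 1 CPM. Between the hindbrain and olfactory classes 15 of the 25 passed as higher and 5 as lower, beside 33.1% and 33.7% of all genes.

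The machinery of the hormone response was likewise not called between genotypes. Of 20 genes for receptors, chaperones, cofactors, hormone metabolism and the peptides of the stress axis, 19 were tested, 12 were positive over all libraries and 11 with class in the fit, and 0 passed in edgeR (0 and 2 below an unadjusted 0.05). With class, Abcb1a, the efflux pump of the blood-brain barrier, differed by 0.19 ± 0.08 (adjusted p = 0.529), and Ptges3, the p23 chaperone of the receptor, by 0.14 ± 0.06 (adjusted p = 0.577). Between region classes 9 passed as higher and 5 as lower in hindbrain than in olfactory libraries, beside the same 33.1% and 33.7%. Hsd11b1, whose enzyme regenerates active corticosterone, was among these at 2.86 ± 0.25 (adjusted p = 9.14e-07, edgeR), and is named after its value was seen.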

How the data were processed

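Per the labels, ribosomal RNA was removed from 250 ng of RNA per sample, and stranded libraries were read as pairs of 100 bp. The labels also name polyA RNA as the molecule, and which of these entries holds was not resolved here. The authors deposited raw read counts per gene. Per the submitters' processing notes, the aligner was STAR 2.7.5b, the build GRCm38 and the counter featureCounts of Subread. The sources used here do not give whether counting used strand. Gene IDs were named through RefSeq on GRCm38.p6 for 25275 of 27179 IDs, and exon lengths come from GENCODE. Mitochondrial genes were not analysed here. Columns were matched to samples by the library number in the titles.

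Library totals had a median of 17635366 counts, and 3 counts correspond to 0.0837 to 0.198 CPM, a limit that covers counting error only. No pair of libraries was alike within sampling noise (lowest chi-square per gene 6.03). Nothing says more of the samples than that each has its own label, so p-values cover only the spread among these samples, which may be technical.

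Testing used edgeR 4.0.16 under R 4.3.3, with filterByExpr over the 4 genotype-by-sex groups, TMM, robust quasi-likelihood F tests and Benjamini-Hochberg adjustment over 17151 genes at 0.05. Genotype was tested with sex as a covariate, without and with library class, and within classes from class-by-genotype means. Fold changes are log2 ± SE, and CPM use TMM-scaled library sizes. The fits were tested on simulated counts. Alternatives were DESeq2 1.42.0, RLE size factors, no filter, no sex covariate, the replicate number as a block and each library left out. Fitting the olfactory class alone was added after the data were seen. Correlations used log2(CPM + 1) with a pseudocount of 1 and exact permutation over 5040 orders, which can give no p below 0.000198.

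The 10 genes, the class rule and all lists were chosen with earlier results of these data known. Named besides the 10 were list genes past the threshold for genotype or else the 2 with the smallest p, and the 5 genes most like Fkbp5 with a mean of at least 1 CPM. Plin3 and Hsd11b1 were named after their values were seen.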

Additional observations from a re-analysis of the deposited data

Results flagged for a closer look

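In 40 sets of 4 libraries (the 10 genes in TG females, WT females, WT males and the WT libraries of the olfactory class), 6 held a library far from the others, where chance gives about 1 in 20 for independent sets of like libraries. These sets share libraries, and those by genotype and sex mix region classes. Fkbp5 was at 42.6 CPM in WT female 4, above the other WT females. In TG females, TG female 2, the only olfactory library among them, stood apart with Tsc22d3 at 76.1 CPM, below the others, and with Cdkn1a at 92.1 CPM, above them. In WT females, WT female 2, the only cortex library among them, stood apart with Zbtb16 at 105 CPM and Nr3c1 at 218 CPM. Among the WT libraries of the olfactory class WT female 4 stood apart with Hif3a at 26.1 CPM.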

How the results depend on the processing

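The replicate numbers of the labels were not shown to pair the libraries. Of 21 same-numbered pairs, 7 had deviations from their group means correlated above 0.1 (r from -0.63 to 0.92). In 6 of these 7, both libraries of the pair were of the same region class. With class, genotype and sex removed, in a check added after these values were seen, 6 of 18 pairs were above 0.1 (r from -0.69 to 0.34). With the replicate number as a block, the Plin4 difference within the olfactory class was 2.33 (adjusted p = 0.0845), so 0 of the 10 genes were called there. That fit called 16 genes over all libraries, 53 with class, 2 within the olfactory class, 1 within the hindbrain class, 1 within the cortex class and 0 for the difference between classes, against 19, 85, 42, 12, 47 and 2. Differences that changed sign with the block were Zbtb16 over all libraries (0.088) and, within the hindbrain class, Plin4 (-0.29), Cdkn1a (0.38), Pdk4 (-0.13) and Hif3a (-0.13), none of them called. Nr3c1 between hindbrain and olfactory classes (adjusted p = 0.104) and Sgk1 between cortex and olfactory classes (0.0567) lost their calls.

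DESeq2 called 40 genes over all libraries, 175 with class, 115, 36 and 255 within the olfactory, hindbrain and cortex classes and 34 for the difference between classes. Of the 10 genes it called 1, Plin4, with class (1.40), within the cortex class (1.42) and for the difference (1.76), and it gave Cdkn1a in the hindbrain class 0.0046, against -0.01. RLE size factors gave that value as 8.63e-05. Within the olfactory class DESeq2 called Plin4, as the main edgeR fit did. With no filter on low counts, and with the olfactory class fitted alone, 0 of the 10 were called within the olfactory class. Without the sex covariate Pdk4 over all libraries was 0.045, against -0.11.

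With each library left out in turn, genes called ranged from 56 to 86 with class (56 without TG male 4), 18 to 69 within the olfactory class (18 without TG female 2 or TG male 3, 69 without WT male 4), 4 to 15 within the hindbrain class (4 without WT male 3 or TG female 4), 1 to 125 within the cortex class (1 without WT male 4, 125 without WT male 1) and 0 to 25 for the difference between classes (25 without WT male 4 or WT female 2). Of the 10 genes, 0 to 1 were called with class, 0 to 1 within the olfactory class, and 5 to 8 between hindbrain and olfactory classes (5 without WT male 3, TG female 4 or TG male 3). Over all libraries, differences that crossed 0 were Tsc22d3 (-0.0044 to 0.39), Zbtb16 (-0.24 to 0.27), Cdkn1a (-0.13 to 0.43), Pdk4 (-0.28 to 0.079) and Nr3c1 (-0.35 to 0.095). With class they were Tsc22d3 (-0.0093 to 0.13) and Cdkn1a (-0.016 to 0.26), and between classes Zbtb16 (-0.095 to 0.13) for hindbrain and Fkbp5 (-0.16 to 0.033) for cortex. Within classes they were Tsc22d3 in the olfactory class (-0.075 to 0.14), Zbtb16 (-0.0069 to 0.71), Plin4 (-0.091 to 0.68) and Cdkn1a (-0.15 to 0.23) in the hindbrain class, and Hif3a in the cortex class (-0.36 to 0.24). Pairs of genes with r above 0.8 numbered 3 to 7 (7 without WT male 2). The cause of these changes was not tested.

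Of 1359 refits of single differences, 1274 kept direction and side of the threshold, 38 changed sign, 36 lost a call and 11 gained one. The lowest count of any of the 10 genes in any library was 89, and each class held 1 to 4 libraries per genotype that it had.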
